A study of Rattus norvegicus with 6 samples.

Results

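The nuclei described here were gated as Drd1 spiny projection neurons of the rat nucleus accumbens. Their place is the Rgs6 end of a score built from 12 genes, and their label names Rgs6, Pde1c, Crym and Calb1. For 5 of them the markers went against the label of a Drd1 spiny neuron, as described below. All were chosen from measured values. A nucleus had to have at least 500 detected genes, at most 5% mitochondrial UMIs (unique molecular identifiers, each standing for 1 captured RNA molecule), at least 2 Gad1 or Gad2 UMIs, at most 1 UMI of Mog, Aqp4, Pdgfra and Csf1r together, at least 2 Drd1 UMIs, no Drd2, Adora2a or Otof UMI, and at most 1 UMI of Chst9 and of Bnc2. Of 64260 barcodes, 61609 passed the filter on genes and mitochondrial UMIs and 244 passed all of these gates. A score then compared the summed UMIs of Ust, Chst15, Pde11a, Sulf1, Pde5a and Mlip (the Pde11a sum) with those of Rgs6, Pde1c, Crym, Calb1, Cntnap3 and Prkch (the Rgs6 sum), as the log2 ratio after adding 1 to each sum. The 82 nuclei with the lowest score are the Rgs6-side nuclei, the 82 with the highest are called Pde11a-side nuclei, and 80 lie between them.

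All tissue came from Sprague-Dawley rats on postnatal days 90 to 120, 6 male and 6 female, whose accumbens punches, 2 mm deep, were pooled into 6 libraries that each held both sexes. Every rat had self-administered heroin, for 7 days at 1 response per infusion and 4 days at 3 responses, then a progressive ratio test on day 12 and a return to 3 responses for days 13 and 14. Saline (replicates 1, 2 and 3) or naloxone, an opioid receptor antagonist (replicates 4, 5 and 6), was then given, and tissue was taken 1 h later. No group without heroin was analysed here, so the comparison asks only what naloxone changed in rats with this history.

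Spiny projection neurons are GABAergic cells that make up most of the striatum. Those with the Drd1 receptor raise cyclic AMP when dopamine binds it and send axons to the ventral midbrain and ventral pallidum, while those with Drd2 respond in the opposite way. Within the Drd1 class, expression varies along continuous axes that relate to position (dorsal to ventral, core to shell, patch to matrix), and Crym and Calb1 are among the genes used to tell such territories apart.

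The 6 libraries held 55739350 to 76272798 UMIs. The Rgs6-side nuclei numbered 20, 8 and 14 in saline replicates 1, 2 and 3 and 11, 11 and 18 in naloxone replicates 4, 5 and 6. Their depth was 1621 to 36539 UMIs with a median of 11102.5, against a median of 10387 in Pde11a-side nuclei. Summed over its Rgs6-side nuclei, a library held 72191 to 320844 UMIs, so that 1 UMI was worth 3.12 to 13.9 CPM (UMIs per 1000000 UMIs of the sum). Saline replicate 2 had the fewest nuclei and naloxone replicate 6 the most UMIs. Of all barcodes, 463 occurred in more than 1 library, among them those of 2 Rgs6-side nuclei, and no 2 Rgs6-side nuclei shared a barcode. Sex could be read in 74 nuclei from Xist and 4 Y-linked genes, 26 female and 48 male, and 3 nuclei held UMIs of both kinds.

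The gate on Drd1 was narrow because the gene was sparse: the files held 6624 Drd1 UMIs, and 885 nuclei had at least 2. Of the Rgs6-side nuclei 71 had exactly 2 Drd1 UMIs, 11 had more, and the highest had 8. In oligodendrocyte nuclei, which should lack the gene, at least 2 Drd1 UMIs were found in 0.212% (13 of 6132, at a median depth of 1961 UMIs) and at least 1 in 2.80%. The Rgs6-side nuclei were deeper (median 11102.5 UMIs), so these shares are not the background rate at their depth, which was not measured. This limit bears on the nuclei with exactly 2 Drd1 UMIs and on those with 1 used further on. Without the limit on Otof, a gene that marks another class of spiny neurons, 560 nuclei would have passed in place of 244. At the edge of the score, 2 Rgs6-side nuclei sat at the limit of -1.50, the next inside was at -1.51, and the nearest outside were at -1.49 and -1.46. Scores ran without a gap through this limit, with a median of -2.37 and a lowest value of -5.43 inside it.

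**Figure D1:**
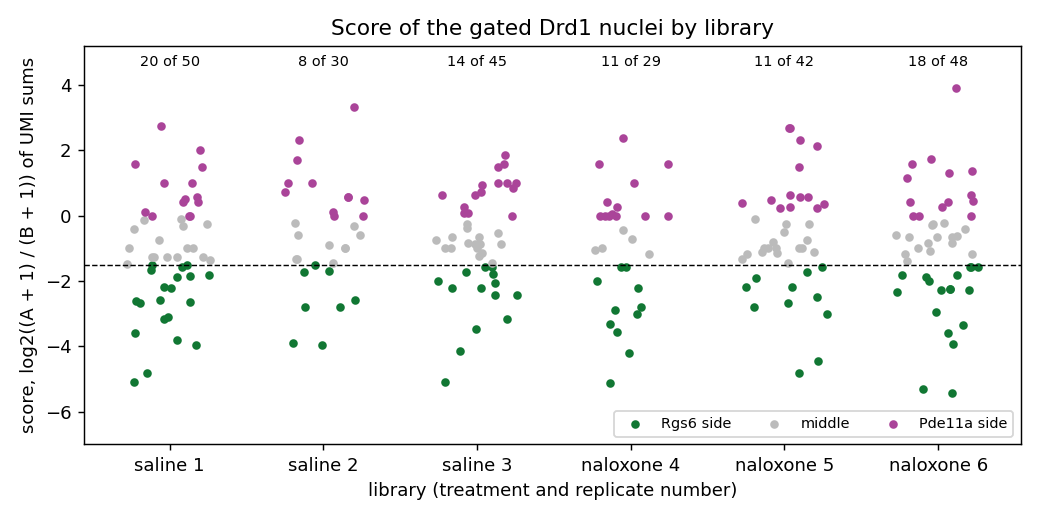
Score (log2 ratio of the Pde11a sum to the Rgs6 sum, after adding 1 to each) of each of the 244 gated Drd1 nuclei, by library, with Rgs6-side nuclei in green, nuclei between in grey and Pde11a-side nuclei in purple. The dashed line is the limit of -1.50; nuclei lie on both sides of it in each library, and 8 (saline replicate 2) to 20 (saline replicate 1) fall below it.

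Among the Rgs6-side nuclei, the score rested mostly on Pde1c and Rgs6. Pde1c, a calcium- and calmodulin-dependent phosphodiesterase of cyclic nucleotides, gave 54.6% of the 2536 UMIs of the Rgs6 sum. Rgs6, which speeds the shut-off of inhibitory G proteins, gave 22.9%. Cntnap3 (a cell adhesion protein) gave 9.35% and Prkch (a protein kinase C) 8.60%. Calb1, a calcium-binding protein, and Crym, a thyroid hormone-binding crystallin, gave 2.41% and 2.13%. The label's last names were therefore rare transcripts in these nuclei.

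A UMI of Pde1c was found in 72 of the 82 nuclei (87.8%) and one of Rgs6 in 63 (76.8%), with 56 holding both and 3 neither. Crym was found in 39 nuclei (47.6%, exact 95% binomial interval 36.4% to 58.9%) and Calb1 in 27 (32.9%, 22.9% to 44.2%). Both occurred in 18 nuclei, Crym alone in 21, Calb1 alone in 9, and neither in 34. These intervals cover counting error only. Because the rule used them, the levels of these genes are given as a description. Rgs6 stood at 561 ± 121 CPM (SD, n = 6 libraries) in Rgs6-side and 107 ± 59.3 CPM in Pde11a-side nuclei, Crym at 54.1 ± 14.5 and 29.5 ± 6.39 CPM, and Calb1 at 58.5 ± 23.9 and 11.7 ± 9.94 CPM. In Drd2 nuclei (3583 that pass the same gates with no Drd1 UMI and at least 2 of Drd2 and Adora2a) Rgs6 was at 130 ± 27.4 CPM, while Crym (44.8 ± 8.45 CPM) and Calb1 (49.3 ± 7.79 CPM) reached about the Rgs6-side level. In the 80 nuclei between, Crym was found about as often as on the Rgs6 side (39 nuclei, 48.8%, mean level 61.5 ± 24.2 CPM), so its mean level was no higher at the Rgs6 end than between. Rgs6 (281 ± 154 CPM) and Calb1 (30.5 CPM, 16 nuclei) stood at intermediate mean levels there.

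The spiny neuron identity of the nuclei was checked against markers the rule did not use. Pde10a and Rgs9, phosphodiesterase and G protein regulator of spiny neurons, were each found in 79 of the 82 nuclei, Foxp1 in 77, Meis2 in 75 and Bcl11b in 71, all 3 transcription factors of striatal projection neurons. Ppp1r1b, which encodes the spiny neuron phosphoprotein DARPP-32, was found in 31. Detection of a UMI alone does not settle identity at this depth. The 5 nuclei rich in interneuron genes, described below, also held 6 to 16 UMIs of Ppp1r1b, Bcl11b, Foxp1, Rgs9 and Pde10a together. Of the Drd1 class markers, Ebf1 was found in 30, Isl1 in 28 and Pdyn, the dynorphin precursor, in 20; Tac1 was not analysed here. The summed UMIs of Ppp1r1b, Bcl11b, Foxp1, Rgs9 and Pde10a per 1000 UMIs had a median of 3.09 in Rgs6-side, 3.92 in Pde11a-side, 3.78 in Drd2 and 0.530 in oligodendrocyte nuclei. Below the 10th percentile of the Drd2 nuclei (1.43 per 1000) lay 10 of the 82 (12.2%), against 9 of the 82 Pde11a-side nuclei and 6 of the 80 between. By its definition this limit leaves 10% of the Drd2 nuclei below it, so the count alone does not go against the spiny neuron label.

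Of the marker lists of other cells, the Drd2 list summed to 283 to 536 CPM per library in Rgs6-side nuclei, against 1750.1 to 2152.9 CPM in Drd2 nuclei. Drd2, Adora2a and Sp9 were at 0, the first 2 by the rule. The list of other spiny classes (the Chst9, Otof and Bnc2 classes and relatives) summed to 211 to 533 CPM. It gave 342 to 1204 CPM in Pde11a-side and 239 to 309 CPM in Drd2 nuclei, so the Rgs6 side was not free of it. Otof, Bnc2 and Nxph2 were at 0, Otof by the rule, while Drd3 was found in 26 nuclei. The interneuron list (10 genes in the files) summed to 13.9 to 86.4 CPM in the saline and 30.2 to 259 CPM in the naloxone libraries, with Pvalb, Pthlh and Vip at 0. Glutamatergic markers gave 1 UMI in all. Oligodendrocyte markers summed to 106 to 679 CPM, against 12552 to 14388 CPM in oligodendrocyte nuclei. Astrocyte markers reached 26.5 to 69.3 CPM in saline and 28.1 to 463 CPM in naloxone libraries, oligodendrocyte precursor markers 0 to 5.08 CPM in saline and 18.3 to 34.3 CPM in naloxone libraries, and microglial and vascular markers 10.2 to 30.9 CPM. The highest interneuron and astrocyte sums fell in naloxone libraries, but the lowest naloxone sums (30.2 and 28.1 CPM) lay within the saline ranges. Of the 114 interneuron list UMIs, 2 nuclei of naloxone replicate 6 held 39 and 38. Of the 43 UMIs of the astrocyte marker Slc1a2, 1 nucleus held 23. The precursor sums did not overlap between treatments but rested on 17 UMIs in all. The part of these cells' RNA in the results was not tested.

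Beyond the genes of the rule, Prkg1, Ebf1, Chrm5, Zfhx4 and Kcna4 were higher and Foxp2, Htr4 and Sema3a lower in Rgs6-side than in Pde11a-side nuclei without overlap between the libraries. The rule orders nuclei along this same axis, so these levels are a description without a test. Of 8772 genes with a measurable level, 230 (2.62%) were higher and 228 (2.6%) lower in Rgs6-side nuclei in 6 of 6 libraries, and for 51 (0.581%) and 31 (0.353%) the ranges of the libraries did not overlap. The counts of the gene lists given next stand beside these shares over all genes, and some lie close to them. As nuclei with no part in choosing the members, but ordered by the same score, 399 nuclei with exactly 1 Drd1 UMI that passed all other gates and the score limit were set against the 1-UMI nuclei past the upper score limit. There, 367 of 8685 genes (4.23%) were higher and 544 (6.26%) lower in 6 of 6 libraries, and 102 (1.17%) and 135 (1.55%) did not overlap.

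Among transcription factors, Ebf1, which is needed for the differentiation of Drd1 spiny neurons, had the largest ratio of the well-counted genes. It stood at 57.4, 291 and 163 CPM in saline replicates 1 to 3 and at 283, 70.4 and 159 CPM in naloxone replicates 4 to 6. In Pde11a-side nuclei the same libraries gave 12.0, 10.1, 0, 33.1, 0 and 19.9 CPM, all below the lowest Rgs6-side value. The means were 171 ± 100 and 12.5 ± 12.6 CPM (SD, n = 6 libraries), a ratio of 13.6. The 1-UMI nuclei gave 206 ± 22.9 against 21.5 ± 19.4 CPM, and Drd2 nuclei 5.41 ± 3.39 CPM. Ebf1 was high on the Rgs6 side in each library, and its lowest and highest values both fell in saline libraries.

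Foxp2, a forkhead factor of striatal development, went the other way. It was at 583, 596 and 458 CPM in the saline and 685, 463 and 655 CPM in the naloxone libraries of Rgs6-side nuclei. Pde11a-side nuclei gave 1451, 2022 and 1704 CPM and 1491, 2029.8 and 2074 CPM. The ranges did not overlap, and the means of 573 ± 95.0 and 1795 ± 284 CPM differed 3.13-fold. The level was 735 against 1425 CPM in the 1-UMI nuclei and 199 ± 24.5 CPM in Drd2 nuclei, so the Rgs6 side lay between Pde11a-side and Drd2 nuclei for this gene.

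Zfhx4, a zinc-finger homeobox factor, was 3.97-fold higher on the Rgs6 side (151 ± 44.4 against 38.1 ± 20.8 CPM, no overlap), though in the 1-UMI nuclei it was higher in 5 of 6 libraries only. Meis2 was 1.36-fold higher (1606 ± 338 against 1179.8 ± 234 CPM). Mef2c was 1.47-fold lower on the Rgs6 side, in 6 of 6 libraries. Of 24 measured identity factors, 3 were higher and 3 lower in every library. Isl1, at 32.1 ± 10.4 against 69.4 ± 37.2 CPM, was not among them, so Ebf1 and Isl1, both markers of the Drd1 class, stood on opposite sides by their means.

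**Figure D2:**
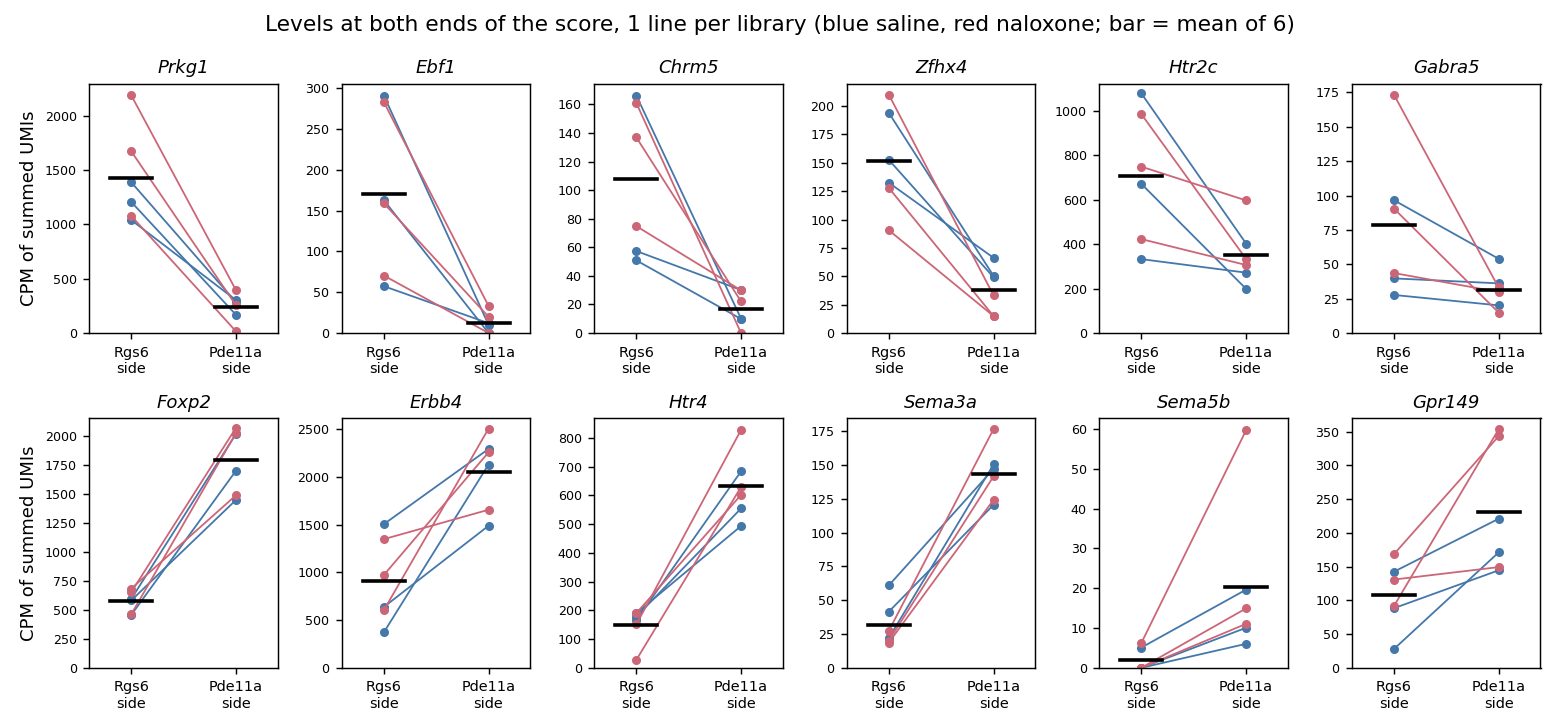
Level (CPM) of 12 genes in the Rgs6-side and the Pde11a-side nuclei, with 1 line per library (blue saline, red naloxone) and a bar at the mean of 6 libraries. Prkg1, Ebf1, Chrm5, Zfhx4, Htr2c and Gabra5 were higher and Foxp2, Erbb4, Htr4, Sema3a, Sema5b and Gpr149 lower in the Rgs6-side nuclei of each library.

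The signalling gene with the clearest difference was Prkg1, the cyclic GMP-dependent kinase through which nitric oxide acts in spiny neurons. It stood at 1386, 1039 and 1205 CPM in the saline and 1670.4, 1077 and 2185 CPM in the naloxone libraries. Pde11a-side nuclei gave 283, 302 and 167 CPM and 254, 14.9 and 393 CPM. The means were 1427 ± 438 and 236 ± 131 CPM, a 6.06-fold difference without overlap. Levels of 1323 ± 175 and 349 ± 51.2 CPM were found in the 1-UMI nuclei, and Drd2 nuclei had 712 ± 64.1 CPM. Pde11a and Pde5a, 2 of the genes of the Pde11a sum, break down cyclic GMP, and their low level on the Rgs6 side follows from the rule.

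Among 28 measured receptors and peptides, the list held 1 gene higher and 3 lower in every library. Htr4, a serotonin receptor that raises cyclic AMP, was at 189.8, 166 and 178 CPM in the saline and 27.4, 151 and 190.1 CPM in the naloxone libraries of Rgs6-side nuclei. Every Pde11a-side value was higher, at 494, 684, 555, 630, 828 and 602 CPM. Pde11a-side nuclei held 4.2 times the Rgs6-side level, and the 1-UMI nuclei gave 105 ± 20.4 against 478 ± 50.8 CPM. Htr2a (40.9 against 69.4 CPM) and the orphan receptor Gpr149 (108 against 230.4 CPM) were lower as well. The serotonin receptor Htr2c was the higher gene of the list, at 706 ± 296 against 351 ± 138 CPM, with overlapping ranges.

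Chrm5, a muscarinic acetylcholine receptor outside the list, was 6.35-fold higher on the Rgs6 side. Its levels of 57.4, 166, 50.8, 137, 161 and 74.8 CPM lay above all Pde11a-side values, which ended at 30.1 CPM. The 1-UMI nuclei gave 64.3 ± 6.23 against 37.5 ± 16.7 CPM, a smaller difference in the same direction in 6 of 6 libraries. Opioid receptor genes showed no such order: Oprm1, the mu receptor, was at 49.7 ± 27.0 against 35.5 ± 26.5 CPM and Oprk1, the kappa receptor, at 26.8 ± 21.5 against 31.3 ± 8.19 CPM. Pdyn was at 38.2 ± 28.8 against 17.6 ± 14.3 CPM and Drd3 at 63.2 ± 31.5 against 86.8 ± 61.5 CPM, also with overlap.

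Of 35 measured glutamate and GABA receptor genes, 5 were higher and 3 lower in each library. The kainate receptor subunit Grik1 was 2.67-fold higher (371 ± 183 against 139 ± 96.6 CPM) and the GABA receptor subunits Gabra5 2.51-fold (78.6 ± 54.4 against 31.4 ± 13.7 CPM) and Gabra2 1.52-fold. Gabrb1 and Grid1 were higher by 1.33-fold and 1.12-fold. Gabrg3 and the metabotropic receptors Grm8 (219 ± 99.1 against 409 ± 208 CPM) and Grm7 were lower. Among the 1-UMI nuclei Gabra5 and Grik1 had the same direction in 4 and 5 of 6 libraries, Grm7 in 3, and Gabra2, Gabrb1, Grid1, Gabrg3 and Grm8 in 6.

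Of 52 measured channel genes, 4 were higher and 2 lower. The potassium channels Kcna4 (200.2 ± 37.7 against 104 ± 34.6 CPM, no overlap) and Kcnh7 (502 ± 172 against 235 ± 101 CPM) were higher, as were Kcnip4 and the calcium channel Cacna1e, by 1.27-fold and 1.25-fold. The G protein-gated potassium channel Kcnj3 (46.9 ± 40.4 against 114 ± 69.0 CPM) and the T-type calcium channel Cacna1h (12.9 ± 12.2 against 37.6 ± 10.5 CPM) were lower. In the 42 cyclic AMP genes 2 were higher, the phosphodiesterases Pde4b (2009 ± 650.0 against 1107 ± 267 CPM) and Pde4d, and none was lower in every library.

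Of 55 measured adhesion and guidance genes, 5 were lower and 2 higher on the Rgs6 side in every library. Sema3a, a secreted repellent of axons, was at 22.1, 41.6, 61.0, 27.4, 20.1 and 18.7 CPM, and at 121 to 177 CPM in Pde11a-side nuclei. The 4.51-fold difference was without overlap, and the 1-UMI nuclei gave 46.5 ± 18.4 against 96.2 ± 11.7 CPM. Sema3e, another semaphorin, was 3.89-fold lower (66.2 ± 43.0 against 257 ± 142 CPM). Erbb4, the neuregulin receptor, was 2.27-fold lower (906 ± 449 against 2056 ± 397 CPM), but its highest Rgs6-side value of 1505 CPM passed the lowest Pde11a-side value of 1489 CPM. Sema5b, listed as a patch gene, was at 0 in 4 libraries and at 1.89 ± 2.94 CPM in the mean, against 20.2 ± 19.9 CPM. The cadherins Cdh12 (420 ± 236 against 112 ± 65.2 CPM) and Cdh4 (454 ± 105 against 221 ± 68.9 CPM) were higher, while Cdh10 and Pcdh11x were lower. Activity-induced genes had a median log2 ratio of 2.07 over 10 measured, but 0 of them were higher in every library, and the median was 0.25 in the 1-UMI nuclei.

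The 15 largest ratios in each direction by the naming rule also held poorly counted genes. Higher on the Rgs6 side were Tex16, Rrp15, Plcz1, Ebf1, Tsr3, Ehd4, Trhr, Chrm5, Chd7, Prkg1, Triqk, Mkx, Decr1, Tex30 and Ipcef1. Lower were Cyp2u1, Stac, Gal3st3, Rnf220, Sema5b, Mrps33, Dkk3, Edar, Thsd7b, Kctd5, Zfp275, Sema3a, Siah3, Htr4 and Camlg. Of the 1-UMI nuclei's levels, 11 of the first 15 and 14 of the second 15 had the same direction by their means, but in every library only Tex16, Ebf1, Chrm5, Prkg1 and Mkx did among the higher and Sema5b, Dkk3, Edar, Thsd7b, Sema3a and Htr4 among the lower. Ehd4, Tsr3, Tex30 and Triqk, each with at most 26 UMIs in Rgs6-side nuclei, were those with the opposite direction among the higher genes. Those 5 higher and 6 lower genes are the ones found at both ends in both sets of nuclei, ordered by the same score.

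Against Drd2 nuclei, 195 of 8620 genes (2.26%) were higher and 372 (4.32%) lower in Rgs6-side nuclei in 6 of 6 libraries, and 74 (0.858%) and 126 (1.46%) did not overlap. Drd1, Drd2 and Adora2a follow from the gates. Higher on the Rgs6 side were Ebf1, Pdyn, Isl1 (32.1 ± 10.4 against 7.25 ± 2.06 CPM), Chrm5, Foxp2 and the homeobox factor Pbx3 (680.0 ± 163 against 235 ± 29.2 CPM). Lower were the enkephalin precursor Penk (21.7 ± 11.4 against 109 ± 27.5 CPM), the delta opioid receptor Oprd1 (9.23 ± 20.2 against 57.5 ± 9.65 CPM), the kainate receptor subunit Grik3 (18.4 ± 20.3 against 199 ± 14.7 CPM) and the muscarinic receptor Chrm3 (49.1 ± 34.1 against 278 ± 52.1 CPM). Chrm3 and Chrm5 thus stood on opposite sides of this comparison. Htr4, Htr2c and Gpr149 were lower than in Drd2 nuclei too, so for Htr4 and Gpr149 the Rgs6 side was below both the Pde11a side and the Drd2 nuclei.

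The Rgs6-side nuclei were not uniform. The 10 with a low spiny marker share held most of the Nxph1 and Sox6 UMIs, 2 genes known from cortical and striatal interneurons. Of these 10, 5 had at least 20 UMIs of Nxph1 or Sox6. Together these 5 nuclei held 236 of the 241 Nxph1 UMIs, and 3 of them 246 of the 265 Sox6 UMIs. Of the 5, 4 also had at least 3 UMIs of the interneuron list, while 62 of the 82 nuclei had none. These 5 nuclei carried interneuron genes beside Drd1, and the label of a Drd1 spiny neuron goes against their markers.

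Over the 5 libraries that held them, the 10 nuclei were set beside the other 72 as a description. Nxph1 stood at 2534.8 ± 2707 against 3.98 ± 6.53 CPM, the potassium channel Kcnc2 at 677 ± 503 against 42.0 ± 45.3 CPM and the potassium channel regulator Kcnip1 at 528 ± 410 against 23.1 ± 15.2 CPM. Necab1 (6.09 ± 13.6 against 336 ± 93.8 CPM) and Nexn (18.5 ± 41.4 against 321 ± 74.3 CPM) were lower. None of the 10 held an Ebf1, Drd3 or Pdyn UMI. Prkg1 and Rgs6, by contrast, were at 1858 ± 858 and 689 ± 454 CPM in these 10 against 1331 ± 549 and 560 ± 148 CPM in the 72. The Rgs6 mean of the 10 hides a split. The 5 nuclei rich in Nxph1 or Sox6 held 0, 0, 1, 24 and 0 Rgs6 UMIs. Their Rgs6 sums were 2, 3, 6, 42 and 5, against a median of 22.5 in the 82, and their Pde11a sums were 0 or 1. Since low marker share chose the 10, their levels of Pde10a, Rgs9, Foxp1 and Bcl11b are not a result.

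Prkg1 varied among the nuclei as well. It was at 0 in 18 of the 82 nuclei and at a median of 13 UMIs, with a highest value of 281. At least 10 UMIs were found in 48 Rgs6-side, 18 of the 80 intermediate and 6 of the 82 Pde11a-side nuclei. This division was made after the values were seen, and 9 nuclei lay between 8 and 12 UMIs. Median depth was 11141.5 UMIs above and 10811 UMIs below the division.

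**Figure D3:**
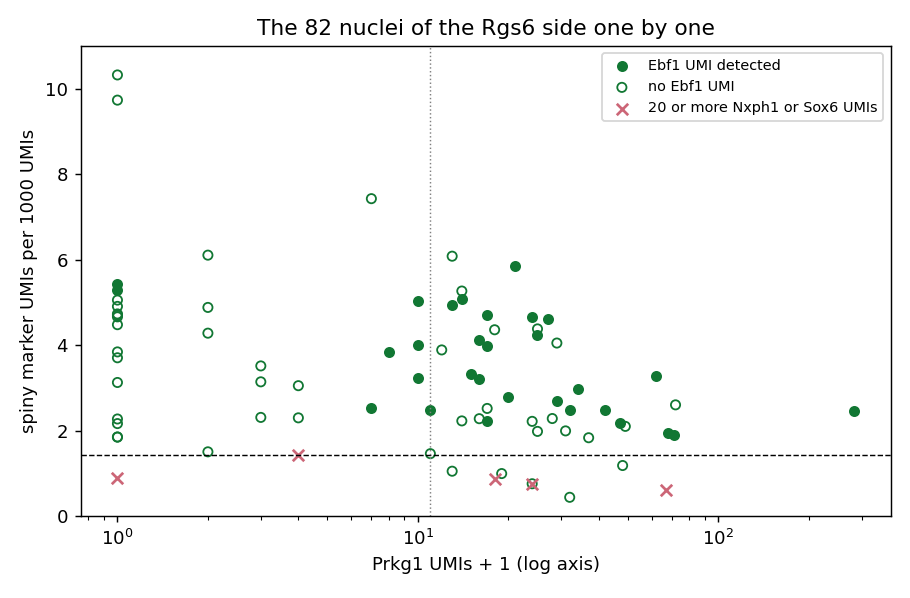
Each Rgs6-side nucleus by its Prkg1 UMIs (plus 1, log axis) and its UMIs of 5 spiny neuron markers per 1000; filled points hold an Ebf1 UMI, open ones none, and crosses hold at least 20 Nxph1 or Sox6 UMIs. The dotted line marks 10 Prkg1 UMIs and the dashed line the limit of 1.43 per 1000; the 5 crosses lie below the dashed line, 1 of them just below it, and 23 of the 30 nuclei with Ebf1 lie at or right of the dotted one.

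After the 10 nuclei low in spiny markers were left out, 40 nuclei lay above and 32 below 10 Prkg1 UMIs. Of 8811 genes, 137 were higher and 108 lower above it in 6 of 6 libraries, given as a description. Ebf1 was at 255 ± 117 against 97.5 ± 116 CPM. Sema3e was at 3.64 ± 8.93 against 160 ± 103 CPM, with 1 UMI against 70. The sodium-activated potassium channel Kcnt2 was at 13.5 ± 27.7 against 233 ± 138 CPM and the anoctamin Ano4 at 53.9 ± 33.0 against 296 ± 140 CPM. Rgs6 itself was at 810 ± 291 against 226 ± 118 CPM, while Crym (62.6 against 55.2 CPM), Calb1 (67.8 against 57.2 CPM), Foxp2 (592 against 578 CPM) and Oprm1 (48.1 against 46.7 CPM) overlapped. Nuclei low in Prkg1 thus carried Sema3e, a gene otherwise more abundant on the Pde11a side, although they had been placed on the Rgs6 side.

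Nuclei with UMIs of only Calb1 or only Crym were also compared, although 18 of the 27 Calb1 nuclei held Crym too and both genes are rare enough for a UMI to be missed. In the 5 libraries with both sets, 9 nuclei with Calb1 and no Crym UMI were set beside 21 with Crym and no Calb1 UMI, again as a description. Of 9720 genes, 79 were higher and 220 lower in the Calb1 nuclei in every library. The genes given next are a few of many compared, and whether the sets are distinct kinds was not tested. The neuronal gene Brinp2 was at 253 ± 212 against 29.0 ± 26.6 CPM and the membrane skeleton gene Epb41l3 at 493 ± 809 against 71.2 ± 42.3 CPM. Chrm5 was at 10.2 ± 22.9 against 153 ± 101 CPM, Ebf1 at 6.44 ± 14.4 against 146 ± 118 CPM and Rgs6 at 165 ± 157 against 756 ± 163 CPM. The 9 Calb1 nuclei also held 94 Nxph1 UMIs, 93 of them in 1 nucleus of naloxone replicate 6, the only 1 of the 9 that was low in spiny markers. With 9 nuclei in 5 libraries, several of these values rest on 1 or 2 nuclei per library.

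The share of gated Drd1 nuclei on the Rgs6 side did not differ between treatments beyond the spread of the libraries. It was 40%, 26.7% and 31.1% in the saline and 37.9%, 26.2% and 37.5% in the naloxone libraries. The means were 32.6 ± 6.79% and 33.9 ± 6.66% (SD, n = 3 each), a difference of 1.28 percentage points (exact two-sided permutation test, p = 1.0, with 0.1 the smallest p that 3 against 3 libraries allow). The groups overlapped fully.

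Whether naloxone changed expression in Rgs6-side nuclei was tested on UMIs summed per library. By edgeR's quasi-likelihood test with Benjamini-Hochberg adjustment, 0 of 2790 genes (0%) passed an adjusted p of 0.05. An unadjusted p under 0.05 was found for 141 genes (5.05%), and DESeq2 called 0 genes, with 56 (2.01%) at an unadjusted p under 0.05. For 310 genes (11.1%) the saline and naloxone libraries did not overlap. The standard error of a log2 change had a median of 0.32 (10th to 90th percentile 0.23 to 0.43), and changes of several times this size were not called. The genes given next had the smallest unadjusted p in each direction, 6 above and 6 below 0, and none of them was called.

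Ptprg, a receptor tyrosine phosphatase, was at 247, 305 and 336 CPM after saline and 703, 573 and 661 CPM after naloxone. The groups did not overlap, with a log2 difference of 1.15 (SE 0.22, edgeR adjusted p = 0.225), and 1 nucleus held 22.2% of its UMIs. The 1-UMI nuclei gave 0.36 for Ptprg. Bach2, a transcription factor, was at 53.0, 41.6 and 50.8 CPM after saline and 146, 141 and 137 CPM after naloxone (log2 difference 1.49, SE 0.31, edgeR adjusted p = 0.225), but its difference was -0.053 in the 1-UMI nuclei. Its levels rested on 3 to 44 UMIs a library.

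Flrt2, an adhesion and guidance receptor, was at 291, 374 and 356 CPM after saline and 119, 90.6 and 162 CPM after naloxone, a log2 difference of -1.34 (SE 0.28, edgeR adjusted p = 0.225). The 1-UMI nuclei gave -0.071. Olfm3, a secreted olfactomedin, was at 680, 457 and 544 CPM and at 301, 322 and 234 CPM (log2 difference -1.02, SE 0.24, edgeR adjusted p = 0.382). Etl4 was at 190, 291 and 219 CPM and at 338, 433 and 929 CPM, with 20% of its UMIs in 1 nucleus. The other genes of this order were Slc24a3, Mcc and Pcdh7 with positive and Igf1r, Ldb2, Mcf2l and Map4 with negative differences, all with an edgeR adjusted p of 0.841. Bach2, Igf1r, Ldb2 and Map4 had the opposite sign in the 1-UMI nuclei, where 0 of 6907 genes (0%) were called by edgeR and 466 (6.75%) had an unadjusted p under 0.05. With the gate widened to at least 1 Drd1 UMI (538 nuclei), 1 of 7849 genes (0.0127%) was called, A630010A05Rikl, and 513 (6.54%) had an unadjusted p under 0.05. Without the 10 nuclei low in spiny markers, Ptprg (log2 difference 1.34, edgeR adjusted p = 0.0468) and Flrt2 (-1.59, adjusted p = 0.0462) passed the threshold.

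**Figure D4:**
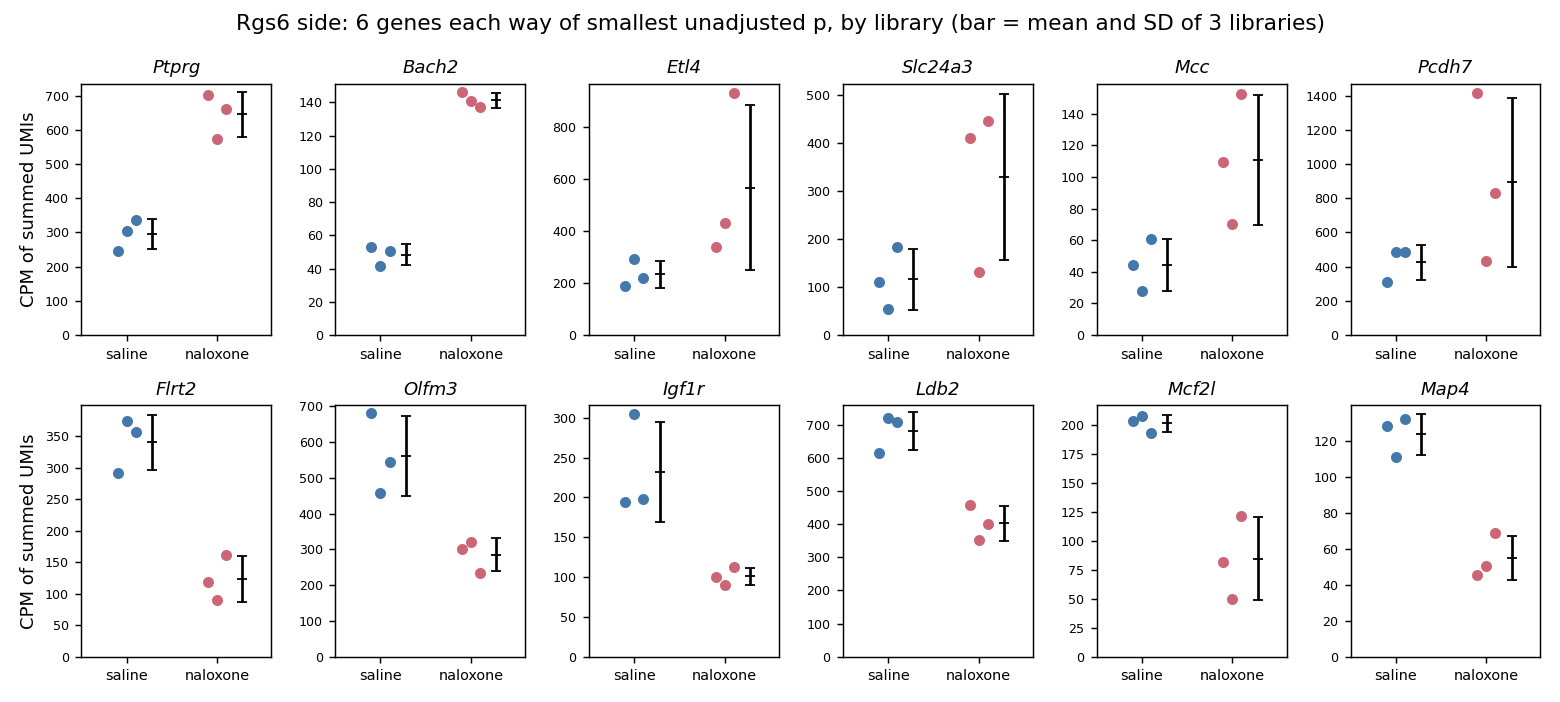
Level (CPM) in Rgs6-side nuclei of the 6 genes above and the 6 below 0 with the smallest unadjusted p, 1 point per library, saline in blue and naloxone in red, with bars for the mean ± SD of 3 libraries. Ptprg and Bach2 lie higher and Flrt2 and Olfm3 lower in all 3 naloxone libraries, and none of the 12 passed the adjusted threshold.

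Heat shock chaperones, which fold proteins and bind steroid receptors, were mostly below saline after naloxone without a call. Of 8 tested genes 7 were below 0, with a median of -0.24 on the log2 scale against 0.01 over all 2790 genes, and 0 were called. The list was made with results of these libraries known, so its direction is no independent evidence. Chordc1, a co-chaperone of Hsp90, was at 92.7, 69.3 and 117 CPM after saline and 18.3, 50.3 and 37.4 CPM after naloxone (log2 difference -1.42, SE 0.42, edgeR adjusted p = 0.841). Hsph1, a large Hsp70 relative, was at 155, 139 and 132 CPM and at 82.2, 40.2 and 84.2 CPM (log2 difference -0.94, SE 0.31, edgeR adjusted p = 0.841).

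Both genes kept this order in the nuclei left out by the Drd1 gate. In the 1-UMI nuclei Hsph1 was at 128, 144 and 134 CPM after saline and 103, 77.7 and 83.2 CPM after naloxone, with a log2 difference of -0.63 (SE 0.16, edgeR adjusted p = 0.595). Chordc1 was at 72.0, 88.3 and 87.9 CPM and at 61.3, 37.1 and 46.6 CPM, with a difference of -0.78 (SE 0.21, edgeR adjusted p = 0.634). Of 19 chaperones tested there, 17 were below 0 with a median of -0.37, and 0 were called. For both genes and in both sets every naloxone library lay below every saline library, and neither gene passed the threshold. Both sets come from the same 6 libraries, so the shared order is not separate support. On the Rgs6 side the groups did not overlap for 310 of 2790 genes (11.1%).

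The other lists gave 0 called genes as well. Fitted differences were above 0 for 11 and below for 17 of 28 cyclic AMP genes, 15 and 16 of 31 glutamate and GABA receptor genes, 16 and 21 of 37 channel genes, 23 and 20 of 43 adhesion genes and 10 and 4 of 14 identity factors. Activity-induced genes were below 0 in 3 of 3 tested, with a median of -0.48, and in the 1-UMI nuclei above 0 in 5 of 5, with a median of 0.30. Oprm1, the gene of the receptor that naloxone blocks, had 57 UMIs in the Rgs6-side nuclei and was too low to be tested. Its levels were 83.9, 41.6 and 81.4 CPM after saline and 27.4, 20.1 and 43.6 CPM after naloxone, with overlap. The log2 difference in the 1-UMI nuclei was 0.44 (SE 0.26, edgeR adjusted p = 0.812), of opposite sign.

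The naloxone effect was then compared with that in other spiny neurons. Between Rgs6-side and Pde11a-side nuclei it differed for 0 of 3282 genes (0%) by edgeR, with 122 (3.72%) at an unadjusted p under 0.05, and for 0 by DESeq2, with 30 (0.914%). Between Rgs6-side and Drd2 nuclei it differed for 21 of 11401 genes (0.184%), 13 (0.114%) with a positive and 8 (0.0702%) with a negative difference, and 508 (4.46%) had an unadjusted p under 0.05. DESeq2 called 0, with 218 (1.91%) at an unadjusted p under 0.05. The fit used 1 spread estimate per gene for sums of 8 to 20 Rgs6-side nuclei and of 468 to 894 Drd2 nuclei. The SE of the difference was below that of the Rgs6-side effect alone for Homer1 (0.26 against 0.33) and Ntng1 (0.36 against 0.61). The same held for Eprs1 (0.35 against 0.67) and Enox2 (0.41 against 0.64). For these genes the spread of the small Rgs6-side sums is understated, and the adjusted p-values do not measure it. Many of the 21 rested on few nuclei. A single Rgs6-side nucleus held 96.4% of the UMIs of Hhip, 87.7% of Adamtsl1, 80.6% of Inhba, 73.6% of Nr4a3, 57.7% of Bmpr1b, 53.6% of Vwc2l and 53.5% of Slc1a2.

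Homer1, an activity-induced scaffold of glutamate synapses, rested on many nuclei, with a UMI in 72 of the 82. It was at 565, 596 and 386 CPM after saline and 256, 634 and 243 CPM after naloxone in Rgs6-side nuclei, and at 300.4, 284 and 282 CPM and 388, 468 and 581 CPM in Drd2 nuclei. Naloxone replicate 5 lay above every saline library on the Rgs6 side, whereas in Drd2 nuclei the groups did not overlap. The difference of the 2 effects was -1.29 (SE 0.26, edgeR adjusted p = 0.00136), -0.87 without naloxone replicate 6 and -1.17 without saline replicate 1, where the call was lost. In the wider set it was -0.60 (edgeR adjusted p = 0.748), and without the limit on Otof -1.25 (204 nuclei, edgeR adjusted p = 7.58e-12). The latter set admits nuclei with Otof, a gene that marks another class of spiny neurons. The limit on the adjusted p-values of this fit given above applies to it too. The 1-UMI nuclei stood at 264, 214 and 265 CPM after saline and 348, 360.3 and 291 CPM after naloxone, an effect of 0.42 (SE 0.14), against -0.48 (SE 0.33) in the Rgs6-side nuclei; neither effect was called, and the difference between these 2 was not tested.

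Ntng1, a membrane-anchored netrin, had an effect of the same sign in the Rgs6-side nuclei, in the wider set, which includes them, and in the 1-UMI nuclei. Rgs6-side nuclei gave 92.7, 0 and 61.0 CPM after saline and 283, 10.1 and 221 CPM after naloxone, and Drd2 nuclei 172, 172 and 161 CPM and 153, 132 and 161 CPM. Its difference of effects was 1.61 (SE 0.36, edgeR adjusted p = 0.0112). In the wider set the levels were 81.6, 49.5 and 68.0 CPM after saline and 139, 102 and 138 CPM after naloxone, a difference of effects of 1.08 (SE 0.17, edgeR adjusted p = 0.0173). The 1-UMI nuclei gave 86.5, 59.5 and 69.3 CPM and 113, 111 and 114 CPM, an effect of 0.65 (SE 0.18, edgeR adjusted p = 0.634). Saline and naloxone libraries overlapped in the Rgs6-side nuclei and did not in the other 2 sets. The call was lost by DESeq2 and without saline replicate 2 (1.28) or 3 (1.61) or naloxone replicate 4 (1.26) or 6 (1.31), and it was 0.65 without the limit on Otof and 1.45 without the 10 nuclei low in spiny markers, neither of which passed the threshold.

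Vwc2l, a secreted protein with von Willebrand factor domains, was at 22.1, 0 and 5.08 CPM after saline and 9.13, 0 and 240.0 CPM after naloxone, so that naloxone replicate 6 alone was high. Its difference of effects of 2.95 (SE 0.56, edgeR adjusted p = 0.000754) turned to -1.33 without that library and was 1.74 (edgeR adjusted p = 1.0) without the 10 nuclei low in spiny markers. The call was also lost without saline replicate 3 (2.44, edgeR adjusted p = 0.0565) and without the limit on Otof (1.02, edgeR adjusted p = 0.237). In the wider set it was at 38.1, 18.7 and 24.5 CPM and at 57.2, 68.4 and 115 CPM, against 92.5 ± 3.04 and 98.4 ± 27.6 CPM in Drd2 nuclei, a difference of effects of 1.48 (SE 0.26, edgeR adjusted p = 0.0281). Ankrd55, Bcl2 and Ubash3b were the other genes called in the wider set, named here after their values were seen. Of the 5 calls of the wider set, Ntng1 and Vwc2l were also called in the Rgs6-side nuclei, which the wider set includes, so the shared calls are not separate support.

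**Figure D5:**
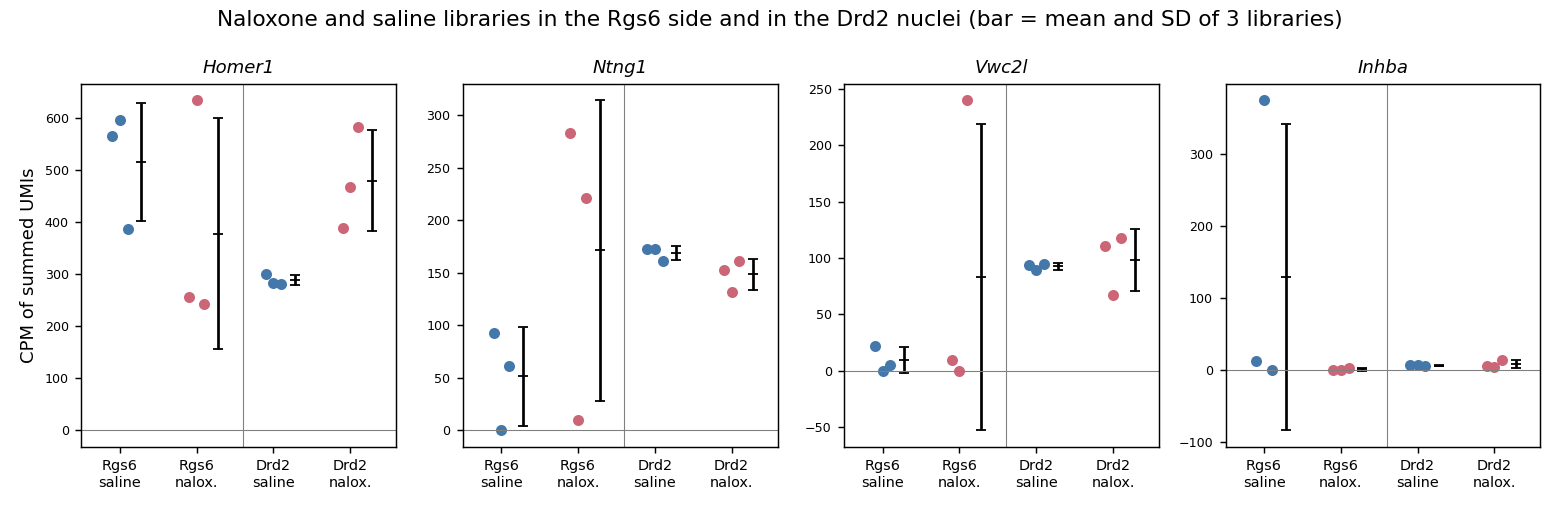
Level (CPM) of Homer1, Ntng1, Vwc2l and Inhba in Rgs6-side and Drd2 nuclei after saline (blue) and naloxone (red), 1 point per library with bars for the mean ± SD of 3 libraries. In the Rgs6-side nuclei 1 library lies far above the rest for Vwc2l (240.0 CPM, naloxone replicate 6) and for Inhba (374 CPM, saline replicate 2).

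Female and male Rgs6-side nuclei were compared within libraries. By edgeR 1 of 834 genes (0.12%) was called, 24 (2.88%) had an unadjusted p under 0.05, and DESeq2 also called 1, with 20 (2.4%) at an unadjusted p under 0.05. The gene, ENSRNOG00000065796, for which the files give no symbol, was at 396, 402 and 367 CPM in the saline and 249, 260.0 and 341 CPM in the naloxone libraries of female nuclei. In male nuclei it had 2 UMIs in all, both in saline replicate 1. The log2 difference was 6.28 (SE 0.54, edgeR adjusted p = 1.54e-05), and female nuclei were higher in 6 of 6 libraries.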

How the data were processed

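Single nuclei were profiled with the 10x Genomics GEM-X 3' v4 kit, per the labels' protocols. The authors deposited raw UMI counts per gene and barcode for 6 libraries, made with Cell Ranger 9.0.1 on mRatBN7.2, and used Seurat 5.2.1 and R 4.4.0, per the submitters' processing notes; the annotation release is not given in the sources used here. The labels state 44592 nuclei, the deposited files hold 64260 barcodes, and 61609 passed the filter used here. The files list 25629 genes, of which 289 symbols are used by more than 1 gene and Tac1 and several others were not analysed here.

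Members, gene lists and alternatives were chosen with earlier results of these data known. No doublet caller was run; nuclei above 2 times the median UMI count and nuclei with both Xist and Y-linked UMIs were left out in turn as alternatives. UMIs were summed per library and set of nuclei (72191 to 320844 UMIs for the Rgs6 side) and tested with edgeR 4.0.16 (quasi-likelihood F-test, TMM factors, filterByExpr, Benjamini-Hochberg adjustment over all genes tested, threshold 0.05). Differences of effects were interaction terms over the library sums of both sets, which come from the same libraries. DESeq2 1.42.0, RLE factors, no filter, each library left out, 1000 genes per nucleus, scores after thinning to 5000 UMIs, other cuts of the score and other gates were alternatives. Sex was called from at least 2 Xist UMIs and none of 4 Y-linked genes, or the reverse with at least 1, and tested within libraries. Levels are CPM of summed UMIs, and the ends of the score were compared by levels alone. The libraries hold different rats, so replicates are biological. The fits of the naloxone effect and of its difference from Drd2 nuclei were run on simulated data with the same spread for all sums. Such data cannot show the understated spread described above, and the other comparisons were not simulated. Other tools were Python 3.11.15, numpy 2.4.6, pandas 2.3.3, SciPy 1.17.1, matplotlib 3.10.9, R 4.3.3 and limma 3.58.1.

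Named genes followed a rule. For naloxone these were called genes of at least 10 CPM, the 10 largest changes in each direction, or, with fewer than 6 called, those of smallest unadjusted p up to 6 in that direction, given as not called. For differences and sex the 5 largest called in each direction and called list genes were named. At the ends the 15 largest ratios in each direction with 6 of 6 libraries and at least 10 CPM were named, and for subsets of nuclei the 8 largest, besides list genes. Some genes that the rule names are not reported here.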

Additional observations from a re-analysis of the deposited data

Results flagged for a closer look

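For 13 named genes the effect of naloxone in Rgs6-side nuclei differed from that in Drd2 nuclei by the test of the difference itself (edgeR's quasi-likelihood test, Benjamini-Hochberg adjustment), all as fitted log2 differences. The limit on the standard errors and adjusted p-values of this test given above holds here too, and DESeq2 called 0 genes. Negative differences were found for Homer1 (-1.29), for Nr4a3, an orphan nuclear receptor (-2.64), and for Inhba, an activin subunit (-5.81). In Rgs6-side nuclei Inhba was at 13.2, 374 and 0 CPM after saline and 0, 0 and 3.12 CPM after naloxone, with 80.6% of its UMIs in 1 nucleus. Nr4a3 was at 177, 0 and 0 CPM and at 9.13, 20.1 and 31.2 CPM, with 73.6% of its UMIs in 1 nucleus. For both, 1 saline library was high and the others were at or near 0.

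Gfra1, a receptor for glial cell line-derived neurotrophic factor family ligands, differed by -2.95, the transfer RNA synthetase Eprs1 by -1.61 and Enox2 by -1.60. Eprs1 was at 97.1, 789.6 and 102 CPM after saline and 91.3, 70.4 and 77.9 CPM after naloxone, so that saline replicate 2 alone was high. The same library was highest for Gfra1 (30.9, 166 and 30.5 CPM after saline) and Enox2 (102, 360.2 and 40.7 CPM after saline). Of the 6 fits that each left out a library, 1 kept the call of Gfra1 and 2 that of Enox2, and without the nuclei low in spiny markers the edgeR adjusted p was 0.218 and 0.133.

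Among the positive differences were Ntng1 (1.61), Vwc2l (2.95), the glutamate transporter Slc1a2 (2.60), which is also in the astrocyte marker list, the unconventional myosin Myo5c (3.24) and Adamtsl1 (3.41). Adamtsl1 is also in the list of other spiny classes. It was at 0, 0 and 168 CPM in naloxone replicates 4, 5 and 6, with 87.7% of its UMIs in 1 nucleus. In Rgs6-side nuclei Slc1a2 was at 27.4, 272 and 21.8 CPM in naloxone replicates 4, 5 and 6, and in Pde11a-side nuclei of replicate 5 at 224 CPM; without that library its difference was 1.11 (edgeR adjusted p = 1.0). The astrocyte list reached 463 CPM in Rgs6-side nuclei of that library, and its part in this result was not tested. Bmpr1b, a bone morphogenetic protein receptor, had a fitted difference of 10.54 and was at 0 in all 3 saline libraries and at 164, 20.1 and 18.7 CPM after naloxone. Hhip, which binds hedgehog ligands, had 10.42 and was found in naloxone replicate 6 only, at 87.3 CPM with 96.4% of its UMIs in 1 nucleus. These last 2 fitted values depend on the prior count and are no bounds.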

How the results depend on the processing

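No paired analysis was possible because the saline libraries carry the numbers 1 to 3 and the naloxone libraries 4 to 6. Genes called for naloxone in Rgs6-side nuclei (0) became 23 without a filter on low counts, 1 with scores thinned to 5000 UMIs, 1 with the gate of at least 1 Drd1 UMI, 1 without the limit on Otof and 2 without the nuclei low in spiny markers, and stayed at 0 with each library left out. Differences from Pde11a-side nuclei (0) became 4 without a filter, 4 with thinned scores (Ntng1 in both), 1 with cuts made within each library (Ntng1), 1 with a cut at the lowest sixths (Grik1), and 0 to 1 with a library left out, the 1 without naloxone replicate 5 (Sphkap). Differences from Drd2 nuclei (21) fell to 0 by DESeq2, 12 without nuclei with Xist and Y-linked UMIs, 5 with at least 1 Drd1 UMI, 10 without the nuclei low in spiny markers and 9 to 19 with a library left out (11 without saline replicate 2, 9 without naloxone replicate 6), and were 33 with thinned scores. Genes differing by sex (1) became 10 without a filter, 0 with thinned scores and 1 to 2 with a library left out. The share difference became -2.50 points without nuclei with Xist and Y-linked UMIs, -1.19 without the limit on Otof and -1.68 to 5.12 with a library left out, negative without saline replicate 2 (-1.68), naloxone replicate 4 (-0.75) or 6 (-0.53). Genes higher and lower at the ends in every library numbered 367 and 544 in the 1-UMI nuclei and 356 to 418 and 362 to 406 over 5 libraries, where fewer libraries need to be alike.

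Single genes changed sign in places. In the 1-UMI nuclei Bach2 was at -0.053, Igf1r at 0.014, Ldb2 at 0.016 and Map4 at 0.090. Without the limit on Otof Hspa4 was at 0.024 and Hsp90ab1 at 0.028. With each library left out, Adamtsl1 ran from -7.47 (without naloxone replicate 6) to 4.61, Vwc2l from -1.33 (the same library) to 4.64, Nr4a3 from -3.12 to 7.09 (without saline replicate 1), Hspa4 from -0.41 to 0.12 (without saline replicate 2) and Hsp90aa1 from -0.82 to 0.45 (without saline replicate 1). The cause was not tested. The gates, the 1-UMI set and the spiny marker limit were chosen after seeing the data. With 8 to 20 nuclei a library, genes of few UMIs rest on single nuclei.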
